A study of Mus musculus with 12 samples.

Results

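The genes described here are 3 ErbB receptor genes (Egfr, Erbb2 and Erbb3) and 6 genes for ligands of the epidermal growth factor (EGF) family (Egf, Areg, Ereg, Hbegf, Tgfa and Btc). They were selected by name, with earlier results of these data known, and make up 9 of the 30265 gene symbols in the table. All 9 passed the filter on low values (10 or more in 3 or more libraries), as did 16577 genes in all. The libraries came from intestinal epithelial cells of C57Bl/6 mice that carry the Sox9-GFP reporter, in which green fluorescent protein reports the crypt transcription factor Sox9. Cells were sorted into 4 populations named High, Low, Sublow and Negative, with 3 libraries each, lettered A, B and C, from 12000 cells per library. No treatment is named for any population, all carry the same strain label, and the labels do not say how the reporter was made. Since the labels do not tie the letters to separate animals, the p-values speak of the spread between these libraries, which may be technical.

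ErbB receptors are tyrosine kinases that work in pairs: EGFR binds all 6 ligands named above, ERBB2 has no known ligand and serves as the preferred partner of the others, and ERBB3 binds neuregulins and signals mainly through its partner. The ligands are made as membrane-anchored precursors and released by metalloproteases such as ADAM17, and the activated receptors feed the Ras-MAPK and PI3K-AKT cascades. In the intestine EGF is a standard ingredient of the medium in which crypt organoids grow, and the inhibitor LRIG1 restrains ErbB receptors at the crypt base.

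Values are normalised read counts, that is whole reads divided by a size factor of the library, with totals between 11.6 M and 17.0 M reads. A count of 3 reads, the floor used here, corresponds to 2.38 to 4.61 normalised reads depending on the library. Summed over the 3 libraries of a population, the members gave between 44 reads (Ereg in High) and 39597 reads (Erbb3 in Negative). Sox9 itself followed the labels, with means of 20262, 6601, 2084 and 604 from High to Negative. The 5 epithelial markers (Epcam, Krt8, Krt18, Cdh1 and Vil1) summed to between 64820 and 173796 in every library. Summed markers of other cell types also moved with the sort, with the enteroendocrine (324917 to 531572) and tuft (90510 to 94347) sums highest in High and the crypt base stem sum (60443 to 79714) highest in Low. The sum of 6 goblet markers was 6997 to 10498 in High, 139657 to 481246 in Low, 337881 to 584552 in Sublow and 50725 to 108742 in Negative. That of 5 cycling markers was 1908 to 3951 in High, 31860 to 34909 in Low, 18265 to 31337 in Sublow and 2367 to 9339 in Negative. The sum of 6 enterocyte markers was 25885 to 35746 in High, 11327 to 30999 in Low, 54909 to 316990 in Sublow and 386581 to 583968 in Negative, and that of 6 Paneth markers was highest in Negative (45979 to 119621). The part of these cell types in the differences given here was not tested. The sum of 9 leukocyte markers was 2098 to 3480 in High, mostly Ptprc, against 187 to 293 elsewhere, and that of 7 stromal markers was 3020 to 4721 in High, mostly Vim, with Dcn and Lum at 0. In sorted bulk libraries such as these, fewer cells of a type and less RNA per cell cannot be told apart.

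Egfr moved along the sort in the opposite direction to Erbb2 and Erbb3. Egfr had its highest mean in High and its lowest in Negative, whereas Erbb2 and Erbb3 had their lowest means in High and their highest in Negative. Among ligands Areg, Ereg and Hbegf had their lowest means in High and their highest in Negative. Btc and Egf also had their lowest means in High, and Btc was highest in Low and Sublow. Tgfa and Egf had at most 1 called difference each. Differences are given on the log2(value + 1) scale from 1 limma fit of all 12 libraries, and a difference was called when its p-value, adjusted over the 16577 genes, was below 0.05. The standard error (SE) of a gene is pooled over the 4 populations.

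Egfr, the receptor of all 6 ligands, lies at chr11:16752203-16918158 of GRCm38 on the plus strand. Its values were 1161, 1216 and 1221 normalised reads in High, and 902, 1173 and 1205 in Low. They were 806, 816 and 1070.3 in Sublow and 534, 521 and 556 in Negative. The Negative libraries were all below the other 9, while Low overlapped both High and Sublow. From High to Negative the means were 1199.6 ± 33.5, 1093 ± 166, 897 ± 149.9 and 537 ± 17.4 (SD, n = 3). Egfr was higher in High than in Negative by 1.16 (log2, SE 0.15, adjusted p = 2.32e-05), a fold of 2.23. It was also higher in Low than in Negative by 1.01 (adjusted p = 9.91e-05) and in Sublow than in Negative by 0.73 (adjusted p = 0.00618, or 0.0570 from these 6 libraries alone). High exceeded Sublow by 0.43 (adjusted p = 0.0257), a call that was lost without High A, High B, High C, Sublow A or Sublow B (adjusted p = 0.0504 to 0.0920) and in a fit of these 6 libraries alone (0.0556). High and Low differed by 0.15 (adjusted p = 0.451, 95% interval -0.17 to 0.46), and Low and Sublow by 0.29 (adjusted p = 0.182).

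Erbb2, which encodes the receptor without a known ligand, lies at chr11:98412470-98437716 on the plus strand. In High its values were 604, 581 and 454 normalised reads, and in Low 2353, 2354 and 1787. In Sublow they were 3839, 4451 and 2608, and in Negative 4894, 6071 and 4783. No library of one population overlapped those of another, so the order High, Low, Sublow, Negative held in every library. The means were 546 ± 80.7, 2165 ± 327, 3633 ± 939 and 5249 ± 714 (SD, n = 3) in that order. Negative exceeded High by 3.27 (log2, SE 0.20, adjusted p = 6.4e-08), a fold of 9.62. Only Areg differed by more between these populations, and Ereg differed by as much. The step from High to Low was 1.98 (adjusted p = 1.62e-05), a fold of 3.96. The step from Low to Sublow was 0.72 (adjusted p = 0.0219) and was not called when Low C, Sublow A or Sublow B was left out (adjusted p = 0.0908, 0.0718 and 0.0917) or values were scaled to the same total (0.0816), nor from these 6 libraries alone (0.0684). From Sublow to Negative the difference of 0.56 was not called (adjusted p = 0.0582), although the libraries did not overlap.

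Erbb3, whose product binds neuregulins, lies at chr10:128567523-128589652 on the minus strand and was the most abundant of the 9 genes. It read 6036, 5914 and 6070.3 in High, and 6967, 6948 and 5584 in Low. It read 10634, 12212 and 6648 in Sublow and 15619, 18005 and 14946 in Negative. All Negative libraries were above the other 9, all Sublow libraries were above High, and High fell within the range of Low. Means were 6007 ± 82.3, 6499.8 ± 793, 9831 ± 2868 and 16190.0 ± 1607 (SD, n = 3) from High to Negative. Negative exceeded High by 1.43 (SE 0.20, adjusted p = 5.21e-05), Low by 1.32 (adjusted p = 0.000129) and Sublow by 0.76 (adjusted p = 0.0172). Sublow exceeded High by 0.66 (adjusted p = 0.0134). The call between Negative and Sublow was lost without Negative B (adjusted p = 0.0712), with values scaled to the same total (0.0665) and from these 6 libraries alone (0.0946), and that between Sublow and High without Sublow A or Sublow B (adjusted p = 0.0516 and 0.0521). Low exceeded High by 0.11 (adjusted p = 0.698, 95% interval of High minus Low -0.54 to 0.32), and Sublow exceeded Low by 0.56 (adjusted p = 0.0593). This last difference was called by edgeR (adjusted p = 0.0419), by DESeq2 (0.0220) and with library weights (0.000277). Over all 21 alternatives it was 0.29 to 0.82 (adjusted p = 0.000277 to 0.236), and 16 of them did not call it.

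Sublow C stood apart from Sublow A and B in all 3 receptors, with the highest Egfr and the lowest Erbb2 and Erbb3 of that population. Its summed enterocyte markers were 54909, against 164536 in Sublow A and 316990 in Sublow B, and its summed crypt base stem markers 33787, against 16021 and 7303. The part of these cell types in the receptor values was not tested. Without Sublow C, Erbb3 was lower in Low than in Sublow by 0.82 (adjusted p = 0.00117), against 0.56 (0.0593) in the same limma fit with all libraries. Over the omission of each of the 12 libraries in turn, it was lower by 0.38 to 0.82 (adjusted p = 0.00117 to 0.222).

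**Figure D1:**
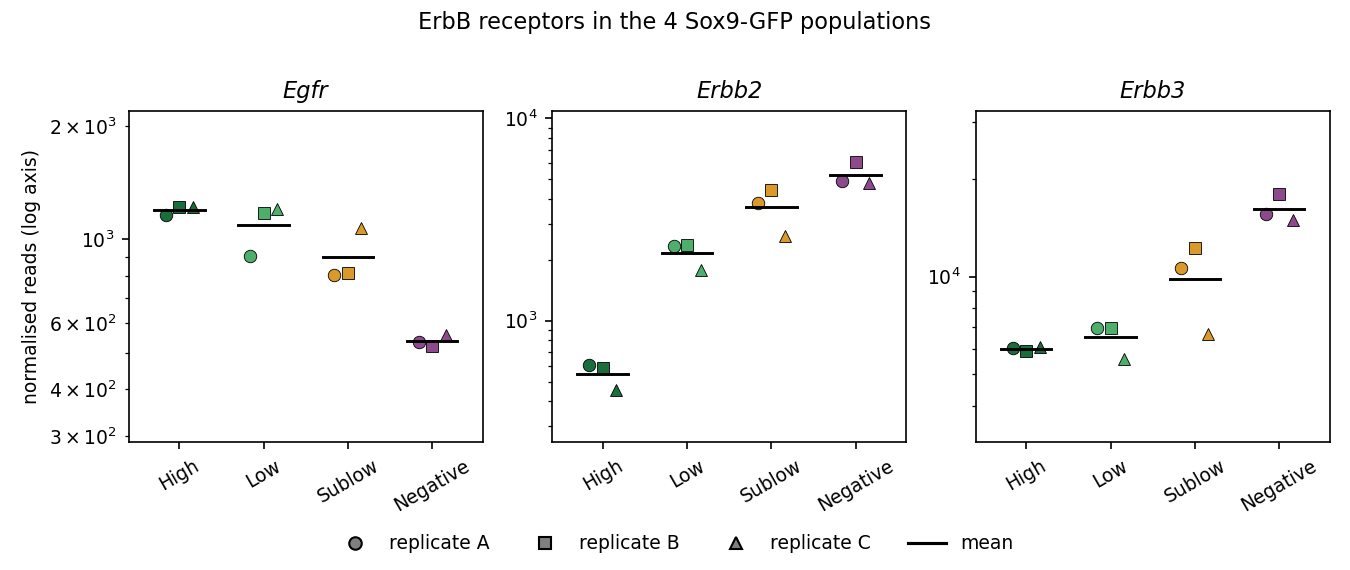
Normalised reads (log axis) of the receptor genes Egfr, Erbb2 and Erbb3 in each library of the 4 Sox9-GFP populations, with circles, squares and triangles for replicates A, B and C and a bar for the mean. Egfr falls from a mean of 1199.6 in High to 537 in Negative, while Erbb2 rises from 546 to 5249 and Erbb3 from 6007 to 16190.0.

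Because longer transcripts give more reads, levels of different genes were compared per kilobase (kb) of exon. The length was that of all annotated exons merged, 11.326 kb for Egfr, 5.21 kb for Erbb2 and 6.016 kb for Erbb3. Shares and ratios between genes depend on these lengths, and which transcripts were present was not determined. Per kb, Erbb3 made up most of the receptor reads in every library, from 65.0% in Sublow C to 83.8% in High C. The share of Egfr fell along the sort, from 8.76% ± 0.321 (SD, n = 3) in High to 6.16% ± 1.51 in Low, 3.59% ± 1.72 in Sublow and 1.28% ± 0.167 in Negative. The share of Erbb2 was 8.66% ± 1.24 in High and between 24.9% and 29.4% in the 9 other libraries. The ratio of Erbb2 to Egfr per kb was thus near 1 in High (1.13, 1.04 and 0.807 in libraries A, B and C) and 19.9, 25.3 and 18.7 in Negative. Low (5.67, 4.36 and 3.23) and Sublow (10.4, 11.9 and 5.30) lay between them, and overlapped only in that Sublow C was below Low A. The ratio of Erbb3 to Erbb2 per kb was 8.66 to 11.6 in High and 2.21 to 2.76 in the other 9 libraries. The summed receptor level per kb was 1209 ± 10.9 in High and 3746 ± 402 in Negative, with Low (1592 ± 186) and Sublow (2411 ± 644) between. These sums were not rescaled to the same total. The deposited values of all genes summed to 1.33e+07 to 1.34e+07 per library in High and 1.74e+07 to 2.06e+07 in Negative.

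The sequence before the start of Egfr and Erbb2 is shown because these receptors lie on the same chromosome and moved in opposite directions. The sequences are from RefSeq (GRCm38.p6), 5′ to 3′ on the strand of the gene, and cover the 250 bases up to the gene's first base at chr11:16751953-16752202 for Egfr and, ending before the annotated exon, 236 bases at chr11:98412234-98412469 for Erbb2. Capitals mark matches, on either strand, to 5 short motifs: TATA box TATAAA, cyclic AMP response element TGACGTCA, AP-1 site TGACTCA, GC box GGGCGG and ETS core CCGGAA.
Egfr: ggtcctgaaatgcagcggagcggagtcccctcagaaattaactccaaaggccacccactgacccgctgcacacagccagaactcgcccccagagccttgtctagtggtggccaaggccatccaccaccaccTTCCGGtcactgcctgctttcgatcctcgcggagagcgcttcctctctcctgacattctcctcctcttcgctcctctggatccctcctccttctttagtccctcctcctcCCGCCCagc
Erbb2: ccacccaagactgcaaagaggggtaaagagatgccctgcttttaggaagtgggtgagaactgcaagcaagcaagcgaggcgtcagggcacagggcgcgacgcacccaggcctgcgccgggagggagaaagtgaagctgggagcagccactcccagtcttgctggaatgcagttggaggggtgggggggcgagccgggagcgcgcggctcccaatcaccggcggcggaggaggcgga
Egfr had an ETS core on the reverse strand (TTCCGG) starting 119 bases before its start, and a reverse GC box (CCGCCC) starting 9 bases before it. Of 32851 mouse windows of the same kind, 12.03% held an ETS core and 32.7% a GC box. In the Erbb2 window none of the 5 motifs was found, and 66% of its full 250 bases were G or C, against a median of 52.4% over all windows.

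Areg (amphiregulin) is a low-affinity ligand of EGFR. Its values were 31.6, 58.1 and 51.5 normalised reads in High and 80.6, 184 and 208 in Low. They were 144, 741 and 322 in Sublow and 272, 1187 and 875 in Negative. The High libraries were below all others, Low was below Negative without overlap, and Sublow overlapped both Low and Negative. Means from High to Negative were 47.1 ± 13.8, 158 ± 67.9, 403 ± 307 and 778 ± 465 (SD, n = 3). Negative exceeded High by 3.82 (log2, SE 0.62, adjusted p = 0.000205), a fold of 14.1 and the largest difference of any member. Sublow exceeded High by 2.81 (adjusted p = 0.00241) and Negative exceeded Low by 2.16 (adjusted p = 0.0103). The excess of Low over High was 1.66 with an adjusted p of 0.0491, and the call was lost without High A, High B, High C, Low B, Low C, Sublow C or Negative C (adjusted p up to 0.150), without the filter and with other pseudocounts (0.0501 to 0.0644). Sublow differed from Low by 1.15 (adjusted p = 0.210) and from Negative by 1.01 (adjusted p = 0.241), and the libraries overlapped in both. This fit does not use the replicate letters. Within each letter Areg rose from High through Low and Sublow to Negative, and limma with a replicate block called both differences (adjusted p = 0.0114 and 0.0188).

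Ereg (epiregulin), the neighbour of Areg, encodes a ligand of EGFR and ERBB4. It was weakly covered, at 12.6, 14.7 and 11.8 normalised reads in High and 9.80, 29.1 and 18.2 in Low. In Sublow it read 80.7, 102 and 95.8 and in Negative 87.6, 121 and 225. Every Sublow and Negative library was above every High and Low library, and there was overlap within each of those pairs of populations. Ereg was higher in Negative than in High by 3.27 (log2, SE 0.40, adjusted p = 1.87e-05) and than in Low by 2.87 (adjusted p = 7.97e-05). It was higher in Sublow than in High by 2.73 (adjusted p = 0.000114) and than in Low by 2.34 (adjusted p = 0.00182), a fold of 5.06. High and Low differed by 0.39 (adjusted p = 0.457) and Sublow and Negative by 0.53 (adjusted p = 0.337). Between neighbours in the sort, the largest step of Ereg was thus the one from Low to Sublow, whereas that of Hbegf and Erbb2 was the one from High to Low. Whether the genes differ in this was not tested.

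Hbegf encodes heparin-binding EGF-like growth factor, a ligand of EGFR and ERBB4. Values were 183, 392 and 302 in High, and 764, 1197 and 1215 in Low. They were 939, 2035 and 1262 in Sublow and 1248, 2088 and 1536 in Negative. The High libraries were below the other 9, and the remaining populations overlapped except Low and Negative. The means were 292 ± 105, 1059 ± 256, 1412 ± 563 and 1624 ± 427 (SD, n = 3) from High to Negative. Low exceeded High by 1.89 (log2, SE 0.33, adjusted p = 0.000668), Sublow exceeded High by 2.26 (adjusted p = 0.000111) and Negative exceeded High by 2.51 (adjusted p = 3.44e-05). Among Low, Sublow and Negative no difference was called, with 0.37 from Low to Sublow (adjusted p = 0.458), 0.24 from Sublow to Negative (adjusted p = 0.608) and 0.62 from Low to Negative (adjusted p = 0.131).

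Btc (betacellulin), also a ligand of EGFR and ERBB4, peaked in the middle of the sort. It read 57.7, 84.8 and 69.3 in High and 138, 160.1 and 136 in Low. It read 111, 121 and 164 in Sublow and 102, 98.4 and 90.1 in Negative. High was below the other 9 libraries, Negative was below Low and Sublow, and Low and Sublow overlapped. Low exceeded High by 1.04 (log2, SE 0.21, adjusted p = 0.00171), a fold of 2.06, and Sublow exceeded High by 0.89 (adjusted p = 0.00348). Low exceeded Negative by 0.57 (adjusted p = 0.0338), and this call was lost when any of the 6 libraries of Low and Negative was left out (adjusted p up to 0.113) or no filter was applied. Sublow and Negative differed by 0.42 (adjusted p = 0.149), and Negative and High by 0.47 (adjusted p = 0.0775).

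Tgfa (transforming growth factor alpha, a ligand of EGFR) varied little between populations. Its values were 269, 307 and 354 in High, 229.8, 242 and 247 in Low, 292, 353 and 259 in Sublow, and 281, 475 and 369 in Negative. The Low libraries were below the other 9, which overlapped among themselves. The only called difference was between Negative and Low, at 0.61 (log2, SE 0.20, adjusted p = 0.0189), a fold of 1.53. It was lost without Low A or Negative B (adjusted p = 0.0559 and 0.0918). It also fell to 0.05 (adjusted p = 0.814) when the values were rescaled to the same total in every library.

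Egf, the founding ligand, was among the least covered members, with 60 to 150 reads summed over the 3 libraries of a population. It read 19.8, 22.1 and 23.7 normalised reads in High and 41.4, 54.8 and 38.0 in Low. It read 20.4, 32.4 and 43.9 in Sublow and 12.7, 26.1 and 35.4 in Negative. Low was above High and Negative without overlap, and Sublow overlapped each other population. None of the 6 comparisons of Egf was called in the limma fit described above, and those nearest to the threshold were Low over High by 0.99 (SE 0.39, adjusted p = 0.0600) and Low over Negative by 0.92 (adjusted p = 0.0607). Those 2 passed an unadjusted p of 0.05, DESeq2 called 1 of them (Low over High), and edgeR called none of the 6. Other limma settings did call them: Low over High with values scaled to the same total (adjusted p = 0.0386), a pseudocount of 5 (0.0477), library weights (0.00924) and these 6 libraries alone (0.0128), and Low over Negative with the same total (1.47, adjusted p = 0.00457) and library weights (0.0238). Low over Sublow was called only with library weights (adjusted p = 0.00806). Both of the differences nearest to the threshold were also called when certain single libraries of Sublow or Negative were left out (adjusted p = 0.0242 to 0.0499). The calls of Egf thus depended on the processing.

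**Figure D2:**
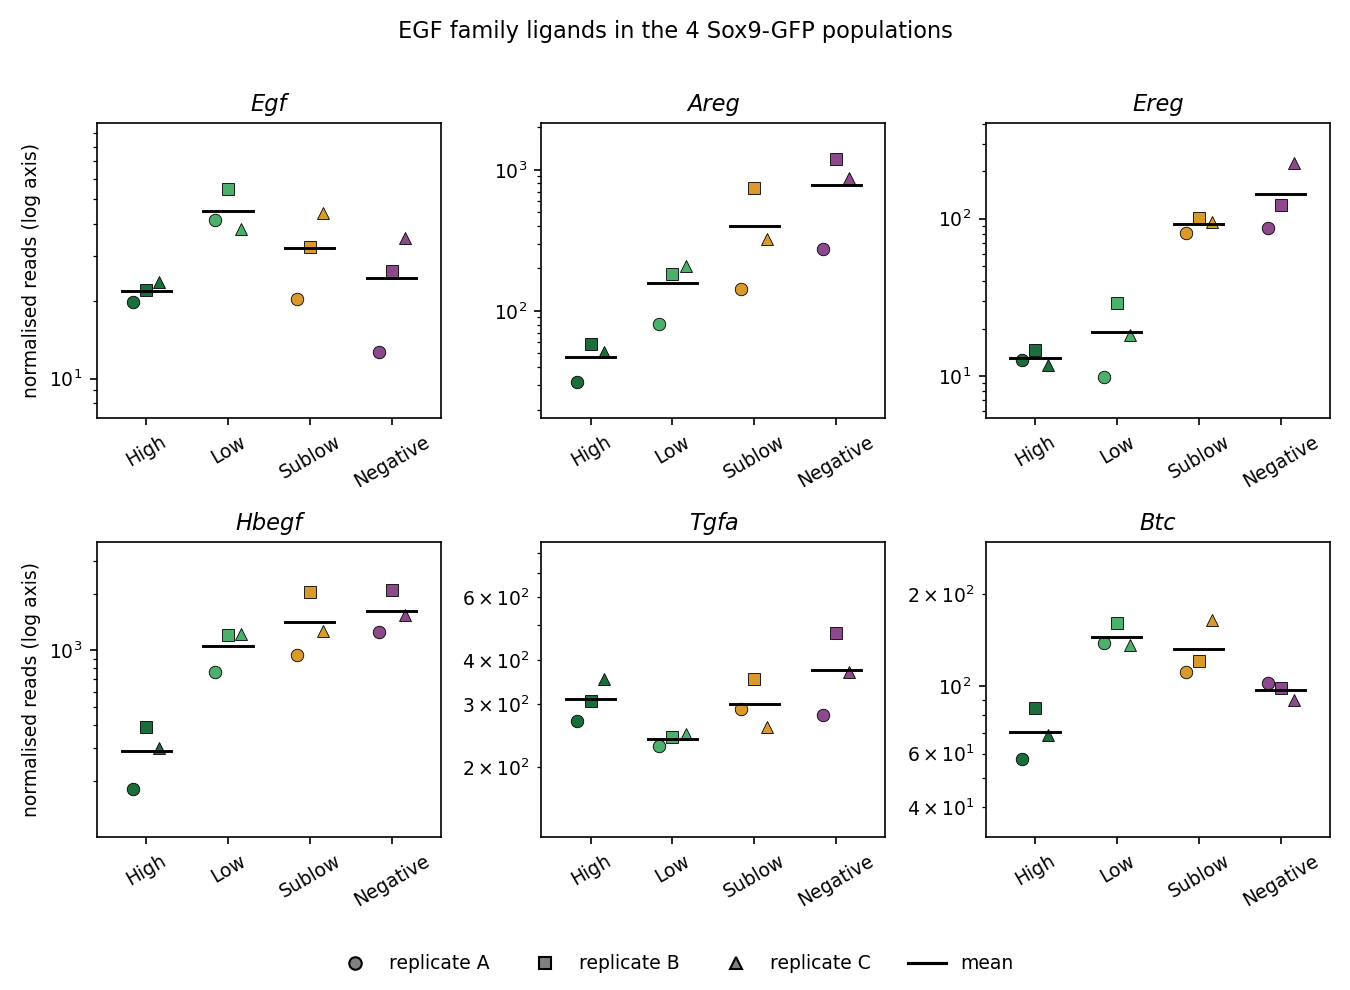
Normalised reads (log axes that differ between panels) of the 6 ligand genes in each library of the 4 populations, with a bar for the mean. Areg, Ereg and Hbegf have their lowest means in High and their highest in Negative, Btc is highest in Low and Sublow, and the Low libraries of Tgfa (229.8 to 247) lie below all others. The High and Low libraries of Ereg overlap.

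Compared per kb of exon, 3 ligands (Hbegf, Tgfa and Areg) held most of the ligand reads in High, whereas Hbegf and Areg each exceeded every other ligand in all libraries of the other populations. The share of Areg in the summed ligand level was 22.9% ± 1.495 (SD, n = 3) in High and 54.8% ± 13.5 in Negative, with 29.4% ± 6.23 in Low and 41.7% ± 12.1 in Sublow. Hbegf held its largest share in Low (51.6% ± 1.51), ahead of Sublow (42.2% ± 5.63), High (35.3% ± 4.83) and Negative (33.5% ± 10.2). Tgfa held 29.2% ± 5.15 in High, where its 3 libraries (23.6% to 33.7%) were above all others, and 9.10%, 7.42% and 5.73% on average in Low, Sublow and Negative. The share of Btc went from 9.43% on average in High to 2.36% in Negative, and Ereg held at most 4.84% and Egf at most 1.43% in any library. The summed ligand level per kb went from 168 ± 40.1 in High through 426 ± 113 and 724 ± 377 in Low and Sublow to 1093 ± 487 in Negative. Like those of the receptors, these sums were not rescaled to the same total. The larger share of Tgfa in High stood beside lower values of Areg and Hbegf there, and Tgfa itself was not called between High and any other population.

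**Figure D3:**
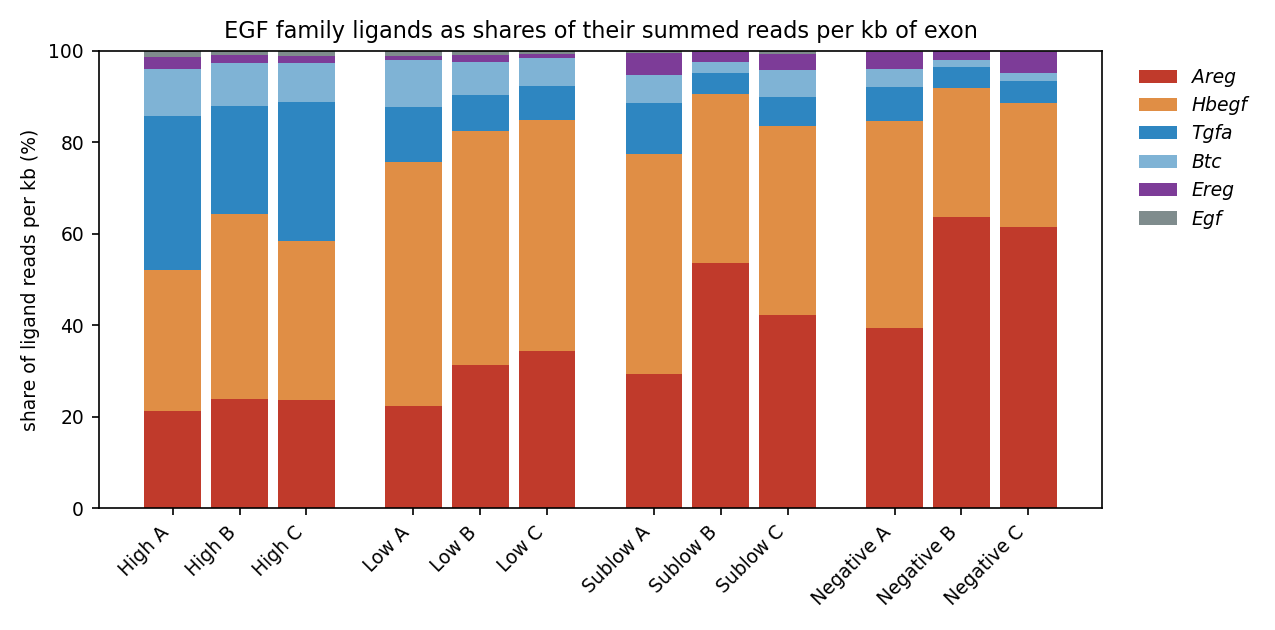
Share of each ligand gene (percent) in the summed ligand reads per kb of exon, 1 stacked bar for each of the 12 libraries. Tgfa holds 23.6% to 33.7% in the High libraries, and Areg reaches 39.3%, 63.6% and 61.4% in Negative A, B and C.

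Areg, Ereg and Btc are neighbours on mouse chromosome 5. In the GRCm38 annotation (GENCODE M21) Epgn lies at chr5:91027464-91035215, Ereg at chr5:91074622-91093646 and Areg at chr5:91139599-91148432, all on the plus strand, followed by Btc at chr5:91357261-91402994 on the minus strand. No other protein-coding gene is annotated between them. Despite their position these genes differed in pattern: Areg and Ereg had their highest means in Negative, Btc had its highest in Low, and Epgn (epigen) did not pass the filter, with 10, 7, 0 and 1 reads in High, Low, Sublow and Negative. The ratio of Areg to Btc per kb was 2.03 to 2.77 in High, 2.17 to 5.69 in Low, 4.81 to 22.8 in Sublow and 9.89 to 44.9 in Negative. The windows of 250 bases before the start of Areg (chr5:91139349-91139598) and Btc (chr5:91402995-91403244) are shown, from RefSeq as above, because these neighbours had different patterns.
Areg: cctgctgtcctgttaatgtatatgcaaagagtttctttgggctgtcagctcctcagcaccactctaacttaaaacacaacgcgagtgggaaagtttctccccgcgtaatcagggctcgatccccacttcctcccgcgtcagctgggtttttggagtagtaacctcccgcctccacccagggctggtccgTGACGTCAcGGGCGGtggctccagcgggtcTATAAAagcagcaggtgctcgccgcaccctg
Btc: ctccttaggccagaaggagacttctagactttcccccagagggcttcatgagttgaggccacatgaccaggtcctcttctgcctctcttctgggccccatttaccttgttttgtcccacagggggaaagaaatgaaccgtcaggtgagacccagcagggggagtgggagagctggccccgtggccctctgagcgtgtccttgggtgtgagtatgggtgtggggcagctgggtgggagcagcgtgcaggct
Areg held a TATA box starting 31 bases before its start, a GC box 52 bases before it and a cyclic AMP response element 61 bases before it. These motifs occurred in 12.4%, 32.7% and 1.55% of the 32851 windows. The Btc window held none of the 5 motifs. A match in the letters is a description of the sequence and does not show that a factor binds there. Of the 9 members, 6 had a RefSeq window (Egfr, Erbb2, Egf, Areg, Tgfa and Btc).

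Of the remaining genes of the family, Nrg4 was covered about as well as Btc, with 284 to 558 reads per population, and the others weakly. Erbb4, the fourth receptor, did not pass the filter and had 8 reads over the 3 High libraries and 17 to 19 over those of each other population. Nrg1, a neuregulin that binds ERBB3 and ERBB4, read 16.2, 17.5 and 13.5 in High and 4.36, 7.71 and 1.58 in Low, with no read in Sublow and 1 in Negative. Against the floor of 3 reads over the population, Nrg1 was at least 15.8-fold higher in High than in Sublow. It passed the filter through its High libraries, so that a difference was bound to appear. Nrg4, a ligand of ERBB4, had its highest mean in High (165) and its lowest in Sublow (94.97), and its only called difference was High over Sublow by 0.80 (SE 0.26, adjusted p = 0.0198), which was lost without High A or Sublow C (0.0584 and 0.0514). Nrg2 had between 7 and 28 reads per population and was called only in High over Sublow, by 1.47 (adjusted p = 0.0230). Nrg3, which did not pass the filter, had between 12 and 18. The counting strand is not given in the sources used here, and 6.06% of the exon bases of Nrg4 overlap Fbxo22 on the opposite strand. Of the members, Egf, Ereg, Tgfa and Erbb2 overlap opposite-strand transcripts over at most 5.38% of their exon bases per transcript.

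Over the 9 members, the number of called differences was set beside that among all genes. Between High and Low, 4 members were called (Erbb2, Areg, Hbegf and Btc, all lower in High), where 42.9% of all tested genes were called and 19.3% were lower in High. Between Low and Sublow, 2 were called (Erbb2 and Ereg, both lower in Low) against 24% of all genes in either direction and 13.3% lower, and between Sublow and Negative 2 (Egfr higher and Erbb3 lower in Sublow) against 27.7% (15.1% higher and 12.7% lower). Between High and Sublow, 7 were called, with Egfr higher and Erbb2, Erbb3, Areg, Ereg, Hbegf and Btc lower in High, against 52% of all genes (26.7% higher and 25.3% lower). Between Low and Negative, 7 were called, with Egfr and Btc higher and Erbb2, Erbb3, Areg, Ereg and Tgfa lower in Low, against 57.2% of all genes (30.3% higher and 26.8% lower). Between High and Negative, 6 were called, with Egfr higher and Erbb2, Erbb3, Areg, Ereg and Hbegf lower in High, against 54.6% of all genes (28.8% higher and 25.8% lower). Counted in either direction, the members' calls therefore lay between slightly below and moderately above the share of all genes, and a call in itself was common in this sort. Of the 28 calls, 23 were lower and 5 higher in the population with more Sox9, in comparisons that share libraries. Among all genes, between 44.9% (High and Low) and 55.3% (Low and Sublow) of the calls were lower in the population with more Sox9. Libraries of the members did not overlap in 6, 3, 4, 7, 9 and 7 of 9 genes in these 6 comparisons in the order given, against 60.7%, 37%, 39.8%, 58.6%, 66.5% and 64.9% of all genes.

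**Figure D4:**
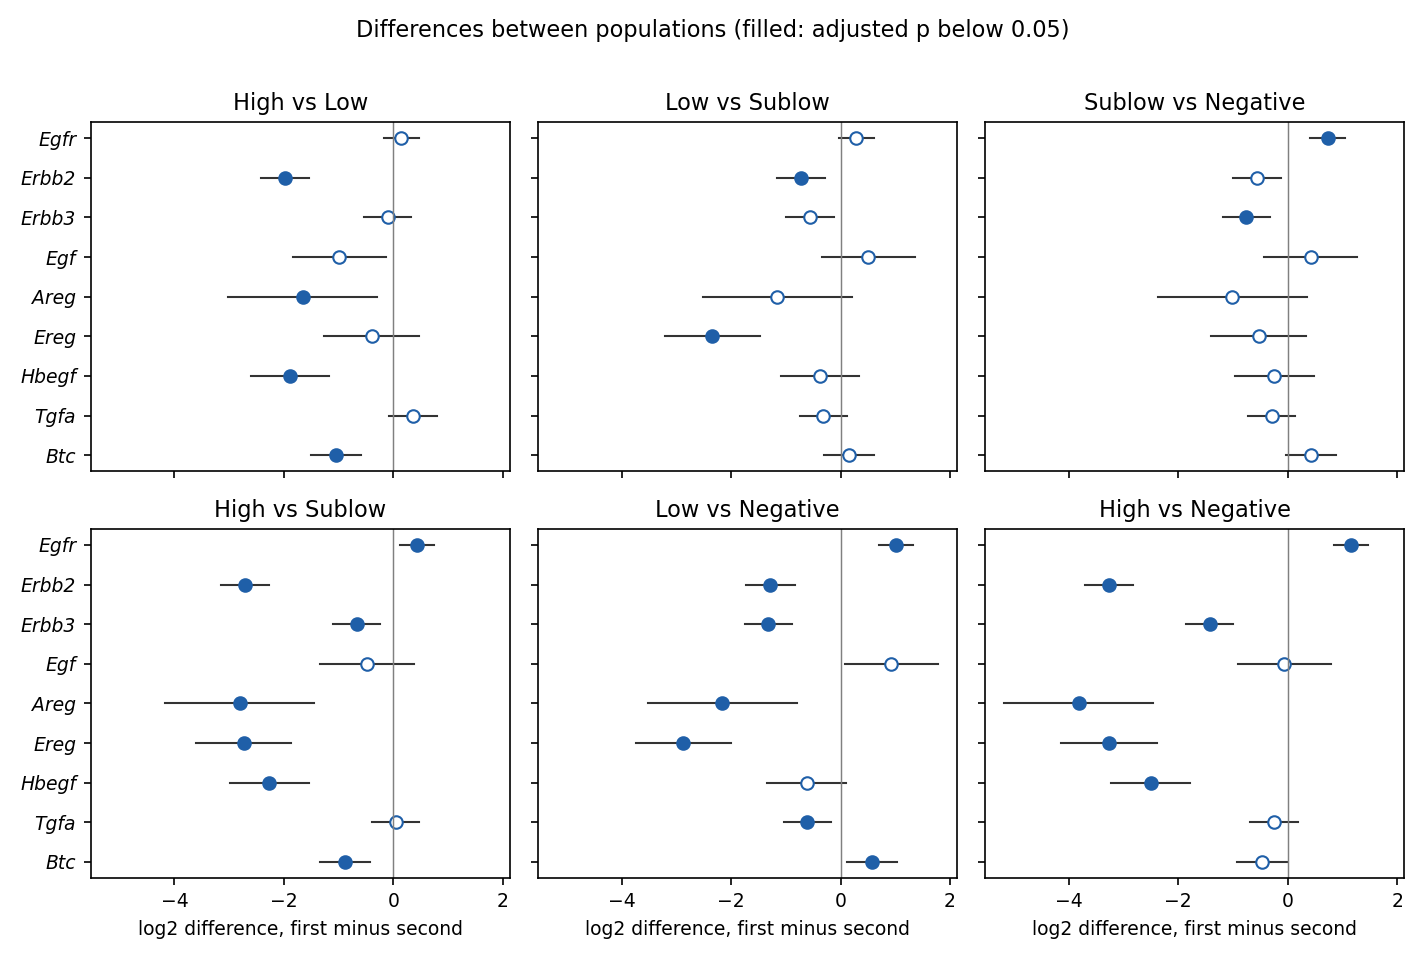
Differences of the 9 members in the 6 comparisons of populations (log2, first minus second population), with lines for 95% intervals and filled points for adjusted p below 0.05. Points left of 0 are lower in the population with more Sox9, as are Erbb2 (down to -3.27) and Areg (down to -3.82), and Egfr lies to the right in every panel (up to 1.16).

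The choice of scaling shifted the reference for these differences, least between High and Low. When values were rescaled to the same total in every library, the median log2 difference of all genes moved from 0.06 to 0.33 between Low and Sublow, from -0.04 to 0.23 between Sublow and Negative and from 0.03 to 0.23 between High and Sublow. It moved from 0.05 to 0.61 between Low and Negative and from 0.03 to 0.51 between High and Negative. The share of called genes that were higher in the population with more Sox9 moved with it, from 44.7% to 71.5%, from 54.4% to 86.2%, from 51.3% to 63.3%, from 53.1% to 76.8% and from 52.8% to 74.3% in those comparisons. Under that scaling the members called were 1 higher and 1 lower between Low and Sublow, 2 higher between Sublow and Negative, and 3 higher and 4 lower between Low and Negative. Against Negative, High still had 1 member higher and 5 lower, and against Sublow 1 higher and 6 lower. Erbb2, Erbb3, Areg, Ereg and Hbegf remained lower in High than in Negative, and Egfr higher, under each of the 21 alternatives.

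Each member's populations were ordered by their means. The calls show which neighbours in that order were told apart in the fit described above, which does not use the replicate letters. For Egfr the order was High, Low, Sublow, Negative, of which neighbours in the first 3 places were not called apart. For Erbb2 it was Negative, Sublow, Low, High, with Negative and Sublow not called apart. For Erbb3 and Areg it was also Negative, Sublow, Low, High, where only Negative and Sublow were called apart among neighbours for Erbb3 and only Low and High for Areg. Ereg and Hbegf followed the same order of means, with a single called step each, between Sublow and Low for Ereg and between Low and High for Hbegf. For Btc the order was Low, Sublow, Negative, High, with no call between neighbours. For Tgfa it was Negative, High, Sublow, Low and for Egf Low, Sublow, Negative, High, again with no call between neighbours.

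Set against each other after centring on their means over the 12 libraries, the members most alike were Egf and Btc, with a root mean square difference of 0.42 on the log2 scale. Erbb3 and Tgfa (0.47) and Erbb2 and Hbegf (0.52) followed. The pair least alike was Egfr and Areg (1.97). These distances have to be read against the spread of each gene about its own mean, which is also its distance to a gene that does not vary: 0.44 for Btc and 0.29 for Tgfa, so that these genes lie no nearer, or little nearer, to these partners among the members than to a flat profile. Over the whole table, the genes nearest to Erbb3 among 10199 genes with a mean of at least 100 were Patj (0.09), which encodes a tight junction scaffold, Vwa8 (0.10) and Tbc1d14 (0.10). Nearest to Erbb2 were Lad1 (0.13), Dhrs3 (0.16) and Naip1 (0.18), and Lad1 went from a mean of 1004 in High to 8556 in Negative. Nearest to Egfr were Mat2a (0.13), Btf3l4 (0.13) and Vps13c (0.13). Among ligands, Nr1d1, a clock repressor, was nearest to Areg at a distance of 0.44, where Areg itself had a spread of 1.61, and Insr, the insulin receptor, was nearest to Tgfa (0.12) and Parp2 to Btc (0.16). These likenesses are over 12 libraries that fall into 4 populations, and many genes share such orders.

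Of the other genes of the pathway, 98 of 101 listed were tested. Between High and Low, 45 of them were called (31 higher and 14 lower in High), between Low and Sublow 28 (15 and 13), and between Sublow and Negative 29 (15 and 14). Between High and Sublow, 52 were called (29 higher and 23 lower in High), between Low and Negative 61 (30 and 31) and between High and Negative 59 (33 and 26). As shares, 45.9%, 28.6%, 29.6%, 53.1%, 62.2% and 60.2% were called in these comparisons, near the shares of all genes given above.

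Among 9 genes of ligand shedding, the inactive rhomboid genes Rhbdf1 and Rhbdf2, whose products carry ADAM17 through the secretory pathway, moved in opposite directions. Rhbdf1 read 512, 560.2 and 545 in High and 137, 135 and 138 in Negative, and was higher in High by 1.97 (log2, SE 0.17, adjusted p = 1.13e-06). Rhbdf2 read 238, 280.1 and 229 in High and 642, 712 and 711 in Negative, and was higher in Negative by 1.47 (SE 0.16, adjusted p = 5.83e-06). Their libraries did not overlap in any of the 6 comparisons. Frmd8, a partner of these proteins, was higher in Negative than in High by 2.44 (adjusted p = 1.39e-05). In the whole list, 2 genes were higher and 4 lower in High than in Negative, where 28.8% of all genes were higher and 25.8% lower. With values scaled to the same total the list had 3 and 3, where 7469 of all 16577 genes were higher and 2583 lower.

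Of 15 receptor inhibitors, 7 were higher and 4 lower in High than in Negative, with a list median of 0.40 against 0.03 for all genes, of which 28.8% were higher and 25.8% lower. Between Low and Negative the list leaned the other way, with 3 higher and 5 lower in Low and a median of -0.30 against 0.05. Of all genes, 30.3% were higher and 26.8% lower in Low. With values scaled to the same total, the counts became 9 and 2 for High and 7 and 1 for Low. Under that scaling 7469 of all 16577 genes were higher and 2583 lower in High than in Negative. In Low they were 8080 and 2435. Lrig1, the ErbB inhibitor of the crypt base, peaked in Low. It read 3881, 3669.6 and 3671 there, 1334, 1018 and 1369 in High, 1986, 1315 and 2312 in Sublow, and 917, 617 and 911 in Negative. The Low libraries were above all others, and Low exceeded Negative by 2.22 (SE 0.21, adjusted p = 9e-06) and High by 1.604 (adjusted p = 0.000107). Socs5, which targets EGFR for degradation, followed the order of Egfr, from a mean of 424 in High to 22.9 in Negative, and was higher in High by 4.22 (SE 0.34, adjusted p = 5.44e-07). Cblc, a ubiquitin ligase of the Cbl family, was higher in Negative than in High by 1.89 (adjusted p = 2.15e-06).

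In the cascades below the receptors, 3 of 12 MAPK cascade genes were higher and 6 lower in Low than in Negative, where 30.3% of all genes were higher and 26.8% lower. The kinase gene Map2k2 had means of 1713 ± 328 (SD, n = 3) in High and 6254 ± 635 in Negative, a difference of 1.88 (adjusted p = 6.2e-06). The scaffold gene Ksr1 had means of 586 ± 161 in Low and 3631 ± 462 in Negative, a difference of 2.66 (adjusted p = 2e-05). The kinase gene Braf went the other way, with means of 1589 ± 161 (SD, n = 3) in High and 481 ± 46.5 in Negative, and was higher in High by 1.72 (adjusted p = 3.74e-07). Of 16 adaptor and Ras genes 1 was higher and 8 lower in Low than in Negative, and of 14 PI3K and AKT genes 4 were higher and 4 lower. With values scaled to the same total, these counts became 6 and 5 for the cascade, 6 and 1 for the adaptors and 9 and 1 for PI3K and AKT. Under that scaling 8080 of all 16577 genes were higher and 2435 lower in Low than in Negative.

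Of 16 genes known to respond to ERK, the last kinase of the cascade, 10 were higher and 2 lower in Low than in Negative, with a list median of 1.29 against 0.05 for all genes, of which 30.3% were higher and 26.8% lower. Between High and Negative 8 were higher and 3 lower in High (median 0.69), where 28.8% of all genes were higher and 25.8% lower. High had 5 higher and 3 lower than Low (median -0.05), where 23.6% of all genes were higher and 19.3% lower (median 0.10). Against Sublow, High had 4 higher and 4 lower (median 0.17), where 26.7% of all genes were higher and 25.3% lower (median 0.03). Of 13 feedback inhibitors of the MAPK cascade, 7 were higher and 2 lower in Low than in Negative, with a median of 1.03. With values scaled to the same total, the counts between Low and Negative were 11 and 1 for the ERK response genes, and 9 and 2 for the feedback inhibitors. Of all 16577 genes, 8080 were higher and 2435 lower in Low under that scaling. Etv5, an ETS factor gene, read 452, 485 and 511 in High and 26.4, 16.9 and 29.7 in Negative. It was higher in High by 4.29 (SE 0.28, adjusted p = 9.33e-08), in the same order of means as Egfr. Etv1 and Etv4 were also higher in High than in Negative, by 8.82 (adjusted p = 1.46e-07) and 4.64 (0.000294), with 7 and 22 reads in Negative. Among the feedback inhibitors with the largest differences, Rasal1, Spred3 and Spry4 were higher in High than in Negative. Spry3 was higher in Negative than in High by 4.76 (adjusted p = 2.61e-05), with 9 reads in High. Myc had its highest mean in Low, at 1274 ± 294 (SD, n = 3), and exceeded Negative by 3.98 (SE 0.58, adjusted p = 0.000105). The 2 ERK response genes that were lower in Low than in Negative were Fosl2 and Epha2, named here after their values were seen. All values are of RNA, and neither protein levels nor kinase activity was measured.

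**Figure D5:**
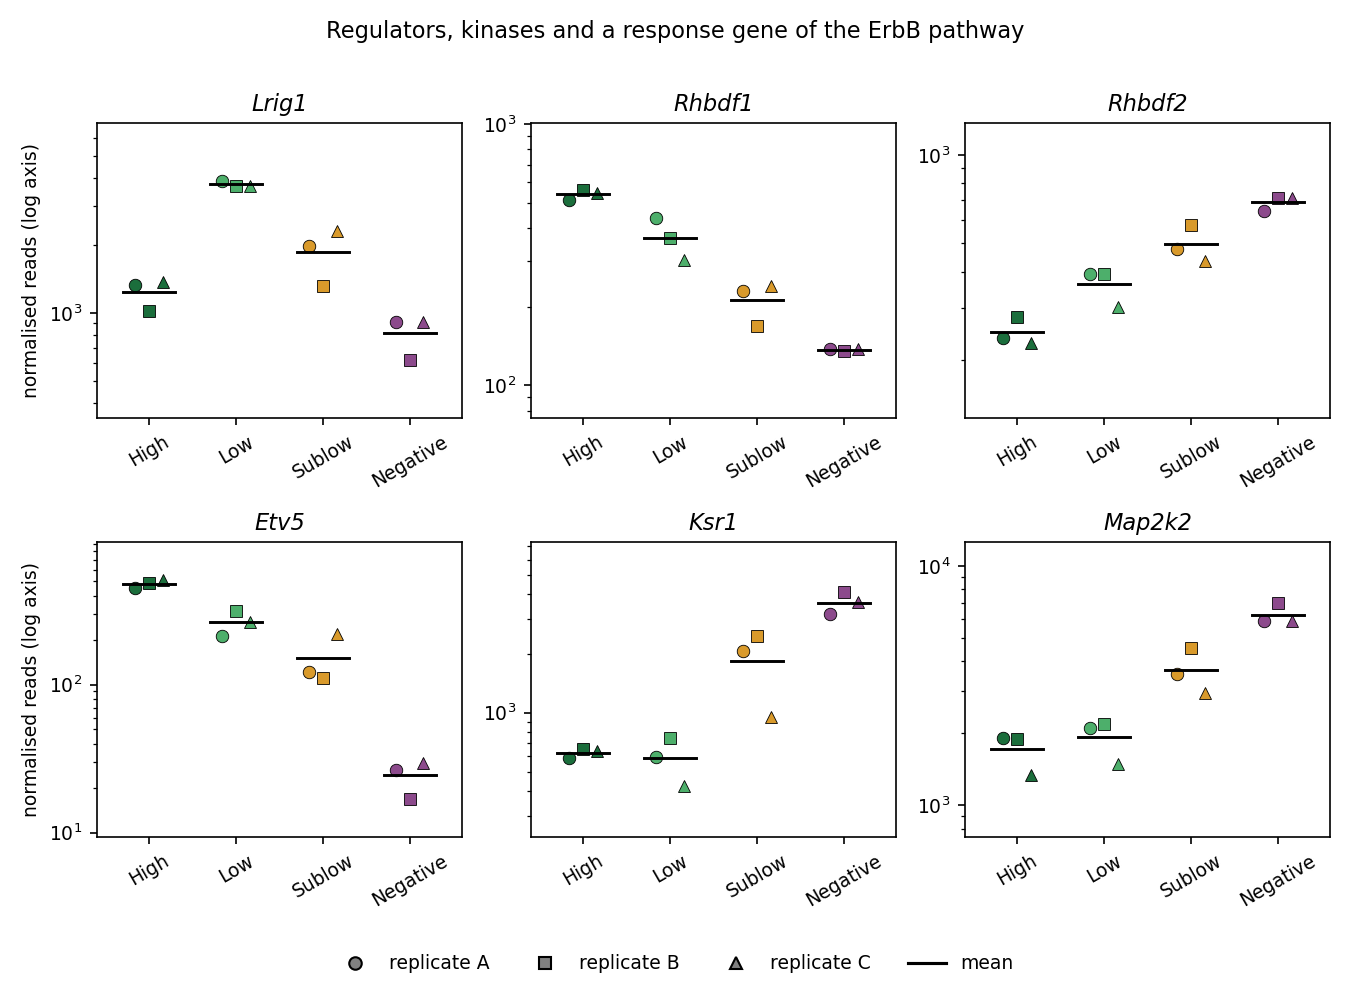
Normalised reads (log axes that differ between panels) of 6 genes of the ErbB pathway in each library of the 4 populations, with a bar for the mean. Lrig1 peaks in Low (3669.6 to 3881), Rhbdf1 and Etv5 fall from High to Negative, and Rhbdf2, Ksr1 and Map2k2 are highest in Negative.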

How the data were processed

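RNA sequencing was analysed from 12 libraries of sorted mouse intestinal epithelial cells, 3 for each of 4 Sox9-GFP populations. Per the labels, libraries were prepared from ribosome-depleted total RNA (Clontech kit, SMARTer Total RNA Pico v2) and read from a single end. From the reads the authors deposited 1 table of normalised values per gene symbol and library, a signal that equals whole read counts divided by a size factor: 100% of the values came out whole (tolerance 0.01). For the aligner, genome build, annotation, counting strand and size-factor program, nothing was given in the sources used here.

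Deposited values were analysed as log2(value + 1) for 16577 genes with at least 10 in at least 3 libraries. Differences came from limma 3.58.1 (R 4.3.3, trend, 1 fit of 12 libraries, 4.10 prior degrees of freedom), adjusted after Benjamini and Hochberg, with a threshold of 0.05. The other settings were edgeR 4.0.16 with TMM and DESeq2 1.42.0 on the recovered counts, no filter, pseudocounts of 0.5 and 5, rescaling to the same total, library weights, a replicate block, fits of only the 6 libraries compared, and the omission of single libraries. The recovered counts gave 7357 (edgeR) and 7714 (DESeq2) called genes between High and Low, against 7110 with limma. The fits were tested on simulated data.

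Levels per kb used merged exons of GENCODE M21 (GRCm38), which may differ from the annotation the authors used and from the transcripts present. Intervals are at 95%. The 9 members and the pathway lists were chosen with earlier results of these data known. Named pathway genes were, in each of 8 lists, up to 4 with the largest called difference. Named likenesses were the 3 genes with the smallest root mean square difference over the libraries, for members with a mean of at least 100, leaving out predicted, unnamed and ribosomal protein genes. Not every gene that this rule names is reported here.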

Additional observations from a re-analysis of the deposited data

How the results depend on the processing

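Of the 54 pairs of a member and a comparison, 28 were called, and 20 of those kept direction and call in all 21 alternatives; every reversal was of a difference that had not been called. Calls between Low and Sublow and between Sublow and Negative depended most on the processing. Of the 9 members, 2 were called between Low and Sublow, against 4 with the replicate block, 5 with library weights, 1 with the 6 libraries alone and 1 to 4 when single libraries were left out. Between Sublow and Negative, also 2, the counts were 4, 4, 0 and 1 to 3. Of all genes, 3979 were called between Low and Sublow. The replicate block gave 5002, library weights 7880, the 6 libraries alone 2492 and the omission of single libraries 2500 to 5603. Between Sublow and Negative, 4597 were called, against 6030, 6939, 321 and 1729 to 6239 in that order. Of the pathway genes, 28 were called between Low and Sublow, against 33, 47, 17 and 18 to 37 in the same order. Between Sublow and Negative they were 29, against 41, 43, 1 and 9 to 33. The fits of 6 also hold fewer libraries, and the cause of these shifts was not tested.

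With values scaled to the same total, the sign turned for High minus Negative in Btc (0.016), Egf (0.41) and Tgfa (0.24) and for Sublow minus Negative in Hbegf (0.045). With library weights it turned for Sublow minus Negative in Egf (-0.016), Low minus Sublow in Hbegf (0.021) and Low minus Negative in Nrg4 (-0.085). Leaving out single libraries gave ranges across 0 for High minus Negative in Egf (-0.46 to 0.24), Sublow minus Negative in Hbegf (-0.54 to 0.013), High minus Sublow in Tgfa (-0.061 to 0.16) and Low minus Negative in Nrg4 (-0.19 to 0.32).

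The labels give the populations the same replicate letters but do not say what a letter marks. Same-letter libraries correlated at 0.0521 to 0.341 in their deviations from the population means (18 pairs, 13 over 0.1), and all 12 correlated best with their own letter. The mean for different letters was -0.0781. Its sign and size follow from centring each population on its own mean, so it is not a separate comparison. With the replicate block, members were called in 5, 4, 4, 7, 9 and 6 genes between High and Low, Low and Sublow, Sublow and Negative, High and Sublow, Low and Negative, and High and Negative. The block called Areg between Low and Sublow (adjusted p = 0.0114) and between Sublow and Negative (0.0188), Erbb2 between Sublow and Negative (0.00570), Erbb3 between Low and Sublow (0.0208), Hbegf between Low and Negative (0.00281), and Egf between High and Low (0.0338) and between Low and Negative (0.0359), none of which the same fit called without it. Depth limits Egf and Ereg most, which had as few as 60 and 44 reads in a population.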

Other observations

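Areg and Hbegf had their lowest value in replicate A in all 4 populations, with Areg at 31.6, 80.6, 144 and 272 in the A libraries of High, Low, Sublow and Negative. Of 16577 genes, 358 (2.16%) did so, among them the pathway genes Dusp5, Egr1, Errfi1, Fos, Jun and Spry1. Replicate B was lowest throughout in 810 genes (4.89%), among them the pathway genes Braf, Ccnd1, Lrig1, Myc, Pik3ca, Pik3r1 and Pik3r3. Errfi1, a feedback inhibitor of EGFR, read 633, 1182 and 1243 in High A, B and C, 574, 946 and 1067 in Low, 615, 1382 and 963 in Sublow and 805, 1284 and 2030.0 in Negative. With values scaled to the same total, 185 genes (1.12%) were lowest in A throughout, and Jun was no longer one of them. Erbb2 had its lowest value in replicate C in all 4 populations, as did 866 genes (5.22%), among them Adam12, Cblc, Gab2, Plcg1 and Rps6ka1 of the pathway. What the letters mark is not given in the labels, and no test was made of this pattern, which was noticed in the data.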
